A study of Mus musculus with 9 samples.

Results

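Vegfa, Vegfb, Shh, Ihh, Ptch1, Pthlh, Pdgfa, Kitl and Kit encode signals, and receptors of signals, by which the acid-secreting parietal cell of the stomach is linked to its neighbours. Their signal was followed in 9 samples of mouse stomach cells, each hybridised to 1 Affymetrix mouse expression array. The members are all probe sets that the platform annotation pairs with exactly 1 gene, that gene being 1 of the 9 listed. This gave 17 probe sets for 8 genes, of 34945 probe sets for 18193 genes on the array. For Pthlh no probe set met the rule, so the gene was not analysed here. A probe set is the group of short probes that together report 1 transcript or a few, and each value below is 1 probe set's log2 signal on 1 array. A difference of 1 on this scale is a factor of 2.

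The samples form 3 groups of 3, and all are labelled as C57BL/6 stomach. The Parietal group held gastric parietal cells. The Isthmus group held Mist1+ Tomato+ cells of the gastric corpus taken after ablation of cells expressing Lgr5, a stem cell marker. The Chief group held Mist1+ Tomato+ corpus cells with no ablation in their labels. Mist1 is a transcription factor that zymogen-secreting cells depend on, Tomato is a red fluorescent reporter, and flow cytometry was used to sort the Isthmus and Chief cells. Not given in the sources used here were the driver of the reporter, the means of ablation, the age and sex of the mice and the way the parietal cells were collected. Whether a group's samples come from different mice is likewise unstated, so every p-value below reflects the spread among 3 samples that could be technical repeats.

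As background, VEGF ligands act on receptors of endothelial cells, and Vegfa is a target of the hypoxia-inducible factors. Hedgehog ligands bind Ptch1, which otherwise holds Smo inactive, and Ptch1 is itself a target of the pathway, while Shh is known as a product of parietal cells in the mouse stomach. PDGF-A, encoded by Pdgfa, acts on mesenchymal cells, and Kitl encodes stem cell factor, the ligand of the receptor tyrosine kinase Kit, which mast cells and interstitial cells of Cajal carry.

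Promoter sequences are shown for genes that were higher in the parietal arrays (Vegfb and Kit) and for genes that were lower there (Kitl and Ihh), so that the regions beside these opposite patterns can be read. They come from RefSeq on GRCm38.p6, run 5′ to 3′ on the gene's own strand and cover 250 bases before to 50 bases after the annotated start. Of the 9 listed genes, 8 had an entry. Capitals mark matches, on either strand, to 3 motifs. These were AGGTCA, the repeat unit that many nuclear receptors bind, ACGTG, a form of the core bound by hypoxia-inducible factors, and TATAAA, the TATA box. Other forms of that core were not searched for. The Vegfb sequence lies at chr19:6987602-6987901 on the minus strand, the Kit sequence at chr5:75574737-75575036 on the plus strand, the Kitl sequence at chr10:100015571-100015870 on the plus strand and the Ihh sequence at chr1:74951623-74951922 on the minus strand.
Vegfb: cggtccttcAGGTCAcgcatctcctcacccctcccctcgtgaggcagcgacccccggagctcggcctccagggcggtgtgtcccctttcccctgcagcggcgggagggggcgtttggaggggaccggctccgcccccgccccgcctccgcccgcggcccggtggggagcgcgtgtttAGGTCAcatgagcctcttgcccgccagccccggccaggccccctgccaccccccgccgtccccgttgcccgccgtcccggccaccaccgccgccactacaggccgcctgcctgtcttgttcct
Kit: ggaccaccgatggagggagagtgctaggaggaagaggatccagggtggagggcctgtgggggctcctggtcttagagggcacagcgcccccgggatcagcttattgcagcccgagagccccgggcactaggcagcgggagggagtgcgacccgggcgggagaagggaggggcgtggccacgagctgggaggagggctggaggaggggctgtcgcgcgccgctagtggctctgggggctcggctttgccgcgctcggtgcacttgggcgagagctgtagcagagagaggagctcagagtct
Kitl: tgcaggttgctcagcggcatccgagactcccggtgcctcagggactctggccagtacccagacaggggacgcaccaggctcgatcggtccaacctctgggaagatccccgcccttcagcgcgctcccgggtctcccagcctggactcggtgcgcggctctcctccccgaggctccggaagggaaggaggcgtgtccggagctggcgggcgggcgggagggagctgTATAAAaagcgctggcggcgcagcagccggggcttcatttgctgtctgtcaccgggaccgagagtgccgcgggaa
Ihh: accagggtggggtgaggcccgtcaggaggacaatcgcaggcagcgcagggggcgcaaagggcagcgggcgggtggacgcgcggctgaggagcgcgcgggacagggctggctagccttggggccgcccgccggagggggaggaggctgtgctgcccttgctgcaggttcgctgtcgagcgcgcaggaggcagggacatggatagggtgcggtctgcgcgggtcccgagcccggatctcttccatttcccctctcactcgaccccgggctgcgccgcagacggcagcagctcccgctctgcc
The Vegfb sequence held 2 matches to AGGTCA, the Kitl sequence held 1 match to TATAAA, and the Kit and Ihh sequences held none of the 3. The 3 motifs do not overlap one another in these sequences. Among 32851 mouse promoters of the same length, 16.3% held AGGTCA, 19.6% held ACGTG and 13.6% held TATAAA. A match describes these letters in this window and nothing about binding.

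Median signal per array lay between 55.7 and 104. Pairs of Parietal arrays correlated at r = 0.859 to 0.875, pairs of Isthmus arrays at 0.822 to 0.831 and pairs of Chief arrays at 0.777 to 0.807. The label of the Parietal group was borne out by its markers, since 11 of 11 parietal cell genes were higher there than in either other group. Of all genes 10.3% were higher than in the Chief group and 11.7% than in the Isthmus group. The parietal cell genes summed to a signal of 103815 to 122104 on Parietal arrays, 26898 to 44948 on Isthmus arrays and 30233 to 49790 on Chief arrays. The 6 chief cell genes summed to 24747 to 32949 on Parietal arrays, 30805 to 41017 on Isthmus arrays and 82008 to 107854 on Chief arrays. The purity of the groups was not tested. Dividing-cell genes summed to a signal of 416 to 598 on Parietal arrays, 10266 to 14378 on Isthmus arrays and 6043 to 11275 on Chief arrays. Chief replicate 3 stood apart by fibroblast genes, which brought the summed signal of that list in the Chief group to between 175 and 25819, against 149 to 357 on Parietal arrays and 81.8 to 168 on Isthmus arrays. Array medians averaged 5.84 in the Parietal group, 6.15 in the Isthmus group and 6.53 in the Chief group on the log2 scale. Subtracting each array's median therefore moved every difference up by 0.69 for Parietal minus Chief, 0.32 for Parietal minus Isthmus and 0.38 for Isthmus minus Chief, and calls that this changed are given with both values. The median difference over all tested probe sets was -0.13, -0.09 and 0.00 in the same 3 comparisons.

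Of the 17 member probe sets, 14 exceeded the median of their array in 3 or more of the 9 arrays and were tested among 21393 probe sets. Between the Parietal and Chief groups 8 of the 14 passed at an adjusted p under 0.05 in limma's moderated test (3 higher and 5 lower in the Parietal group), against 19.9% of all tested probe sets (8.7% higher and 11.2% lower). Between the Parietal and Isthmus groups 10 of the 14 passed (4 higher and 6 lower), against 22.5% of all (10.1% higher and 12.4% lower). None of the 14 passed between the Isthmus and Chief groups, where 1.12% of all did. At an unadjusted p under 0.05 limma gave 2 of the 14 in that comparison, against 15.6% of all. All 4 probe sets of Kitl and all 2 of Kit passed in each Parietal comparison, so the counts hold repeated readings of 2 genes. With 1 probe set per gene, 4 of 8 passed between Parietal and Chief (24.2% of all) and 6 of 8 between Parietal and Isthmus (27.5%). The members were chosen with earlier results of these data known. The 2 Kit probe sets would have missed the filter without their Parietal arrays, so the Kit p-values and the counts of passing members are descriptions only. Groups did not overlap in 10 of 14 probe sets between Parietal and Chief (36.5% of all tested), in 13 of 14 between Parietal and Isthmus (40.2%) and in 4 of 14 between Isthmus and Chief (19.5%). Parietal-minus-Chief and Parietal-minus-Isthmus share the Parietal arrays, so they are not independent of each other. These are bulk measurements, in which fewer cells of a type and less RNA per cell cannot be told apart.

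**Figure D1:**
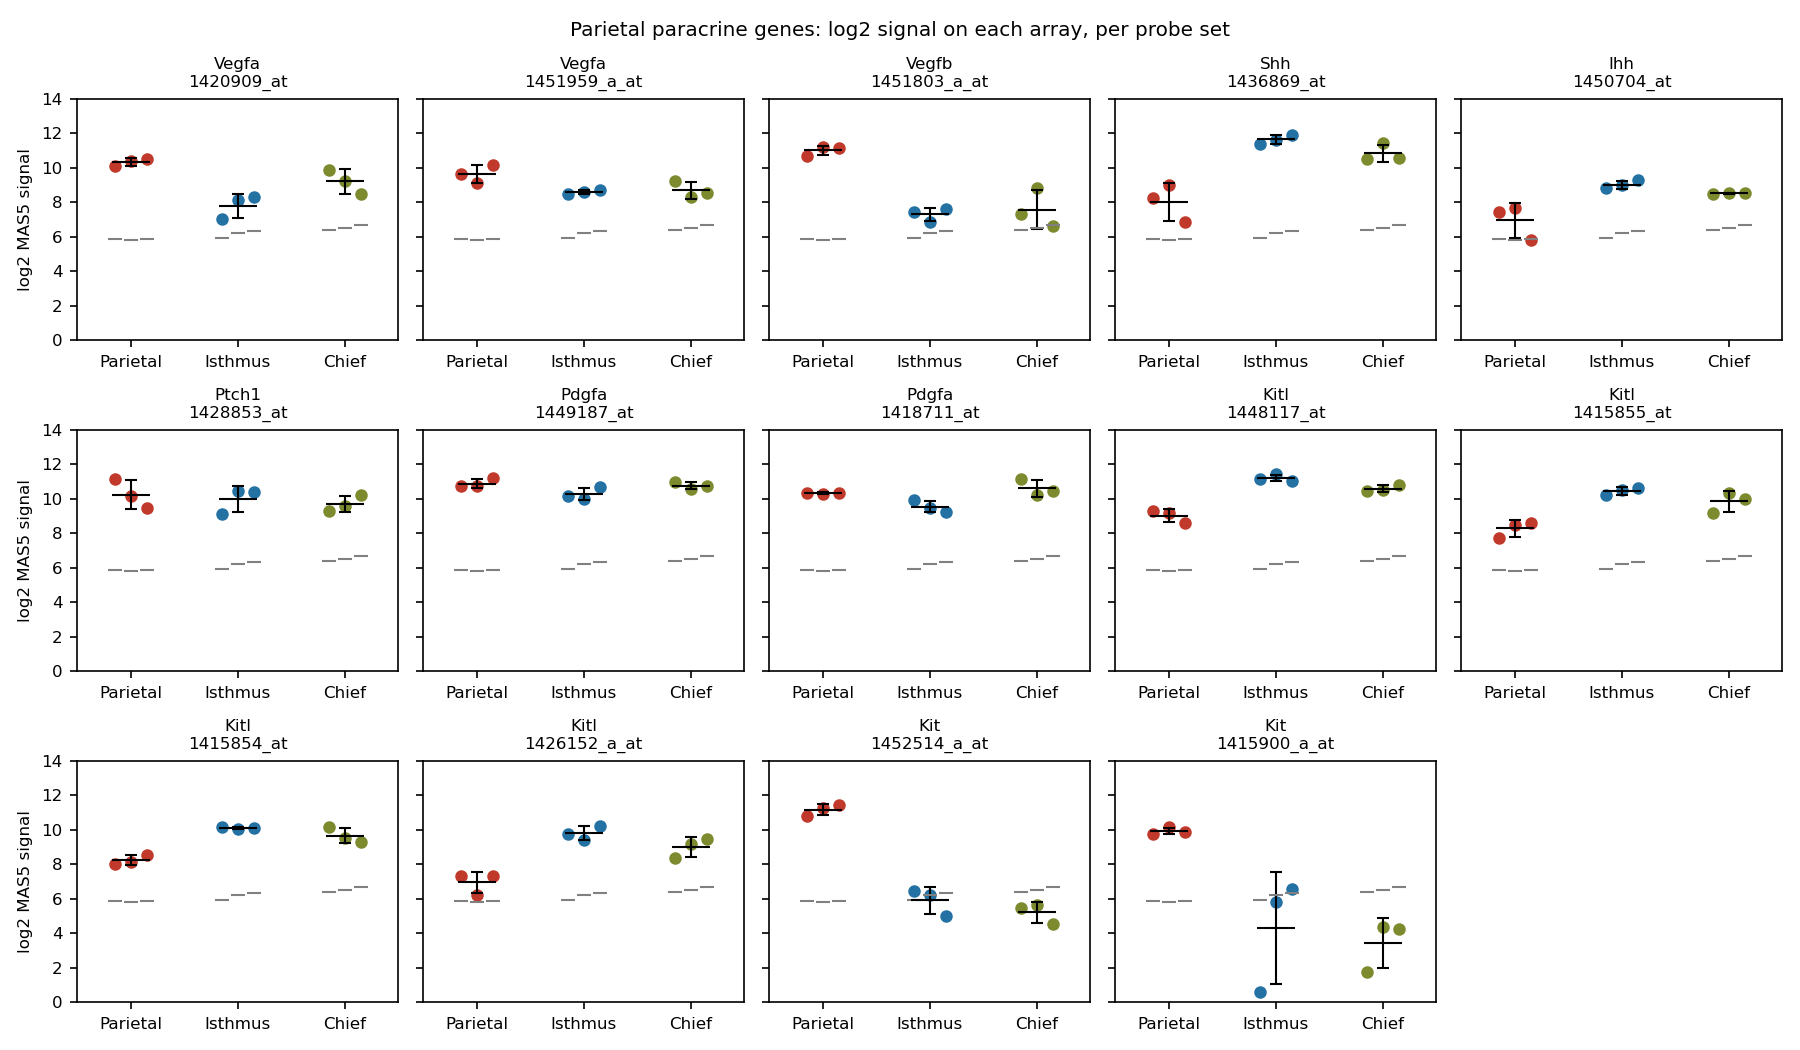
Log2 signal of the 14 tested probe sets (vertical axis) on each array (points), by group, with the group mean and SD (bars, n = 3) and each array's median (grey ticks). Vegfb, Kit and Vegfa 1420909_at lie higher on the 3 Parietal arrays than on the 6 others, while Shh, Ihh and Kitl lie lower there.

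Vegfb rose in the Parietal group over both other groups, and Vegfa rose over the Isthmus group on 1 of its 2 probe sets. Vegfb (1451803_a_at) encodes a VEGF that binds the receptor Flt1. Its log2 signal was 10.68, 11.21 and 11.14 on the Parietal arrays, 7.42, 6.86 and 7.63 on the Isthmus arrays and 7.30, 8.85 and 6.61 on the Chief arrays. The 3 Parietal values were the highest of the 9, with no overlap, and Chief replicate 2 was the highest of the others. The means were 11.01 ± 0.29 in the Parietal group, 7.30 ± 0.40 in the Isthmus group and 7.59 ± 1.15 in the Chief group (SD, n = 3). Vegfb rose by 3.42 in the Parietal over the Chief group (SE 0.56, 95% interval 2.21 to 4.64, limma adjusted p = 0.00096). Because 1 Chief array lay below its own array median, this is given as at least 10.5-fold, with the median in place of the dim value. The rise over the Isthmus group was 3.71, or 13.1-fold (limma adjusted p = 0.000471). Only 1.32% of the tested probe sets lay as far or farther from 0 in the same direction between Parietal and Chief, and 1.53% between Parietal and Isthmus. Isthmus minus Chief was -0.28 (95% interval -1.50 to 0.93, limma adjusted p = 0.851).

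Vegfa, the main angiogenic ligand, was read by 2 tested probe sets that differed in how far the groups stood apart. On 1420909_at the log2 signal was 10.09, 10.38 and 10.52 on the Parietal arrays, 7.01, 8.14 and 8.29 on the Isthmus arrays and 9.90, 9.24 and 8.50 on the Chief arrays. The 3 groups did not overlap and ran Parietal, Chief, Isthmus from high to low, with means of 10.33 ± 0.22 (Parietal), 7.81 ± 0.70 (Isthmus) and 9.21 ± 0.70 (Chief, SD, n = 3). This probe set rose 5.72-fold in the Parietal over the Isthmus group (log2 difference 2.52, SE 0.48, limma adjusted p = 0.00216). Against the Chief group the difference was 1.12 (95% interval 0.08 to 2.15, limma adjusted p = 0.124), which did not pass, and the Isthmus minus Chief difference of -1.40 did not pass either (limma adjusted p = 0.182). With arrays centred on their medians, Parietal minus Chief was 1.81 and passed (limma adjusted p = 0.0132).

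The second Vegfa probe set, 1451959_a_at, read 9.66, 9.11 and 10.17 on the Parietal arrays, 8.47, 8.63 and 8.73 on the Isthmus arrays and 9.24, 8.32 and 8.52 on the Chief arrays. Parietal and Isthmus values did not overlap, while 1 Chief array lay above the lowest Parietal array. Neither the difference of 0.95 from the Chief group (limma adjusted p = 0.147) nor that of 1.04 from the Isthmus group (limma adjusted p = 0.107) passed. Both passed once arrays were centred on their medians (limma adjusted p = 0.0157 and 0.0485). For Isthmus minus Chief this probe set gave -0.08 (limma adjusted p = 0.952) where the other gave -1.40.

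Of the 8 other VEGF ligands and receptors listed, only the co-receptor Nrp1 rose above the median on enough arrays to be tested. It read 5.96, 3.25 and 4.51 on the Parietal arrays, 2.70, 6.44 and 0.41 on the Isthmus arrays and 5.94, 6.68 and 7.05 on the Chief arrays, and it passed in no comparison (Parietal minus Chief -1.98, limma adjusted p = 0.406). The ligands Vegfc, Vegfd and Pgf and the receptors Flt1, Kdr, Flt4 and Nrp2 exceeded the median on 2 arrays at most. Nrp2, a co-receptor, reached 10.23 and 7.23 on Isthmus replicates 2 and 3. Endothelial markers stood beside the VEGF result as follows. Plvap, a protein of fenestrated endothelium, read 10.46, 9.34 and 10.13 on the Parietal arrays, 0.01, 2.94 and 3.81 on the Isthmus arrays and 1.34, 0.43 and 6.10 on the Chief arrays. It was at least 10.9-fold higher in the Parietal than in the Chief group (limma adjusted p = 0.00509) and at least 14.2-fold higher than in the Isthmus group (limma adjusted p = 0.00319). Plvap entered the test through its 3 Parietal arrays alone, since no other array lay above its median, so these p-values are descriptions. Pecam1, Cdh5, Tie1, Tek and Emcn lay below the array median on all 3 Parietal arrays. The whole list of 8 endothelial genes summed to a signal of 1206 to 1901 on Parietal arrays, 381 to 475 on Isthmus arrays and 653 to 990.0 on Chief arrays. Much of the Parietal sum was Plvap, and a sum without it was not computed. Of the 8 genes 3 were tested, and Plvap alone passed in the Parietal comparisons. The part of endothelial RNA in the VEGF differences was not tested.

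**Figure D2:**
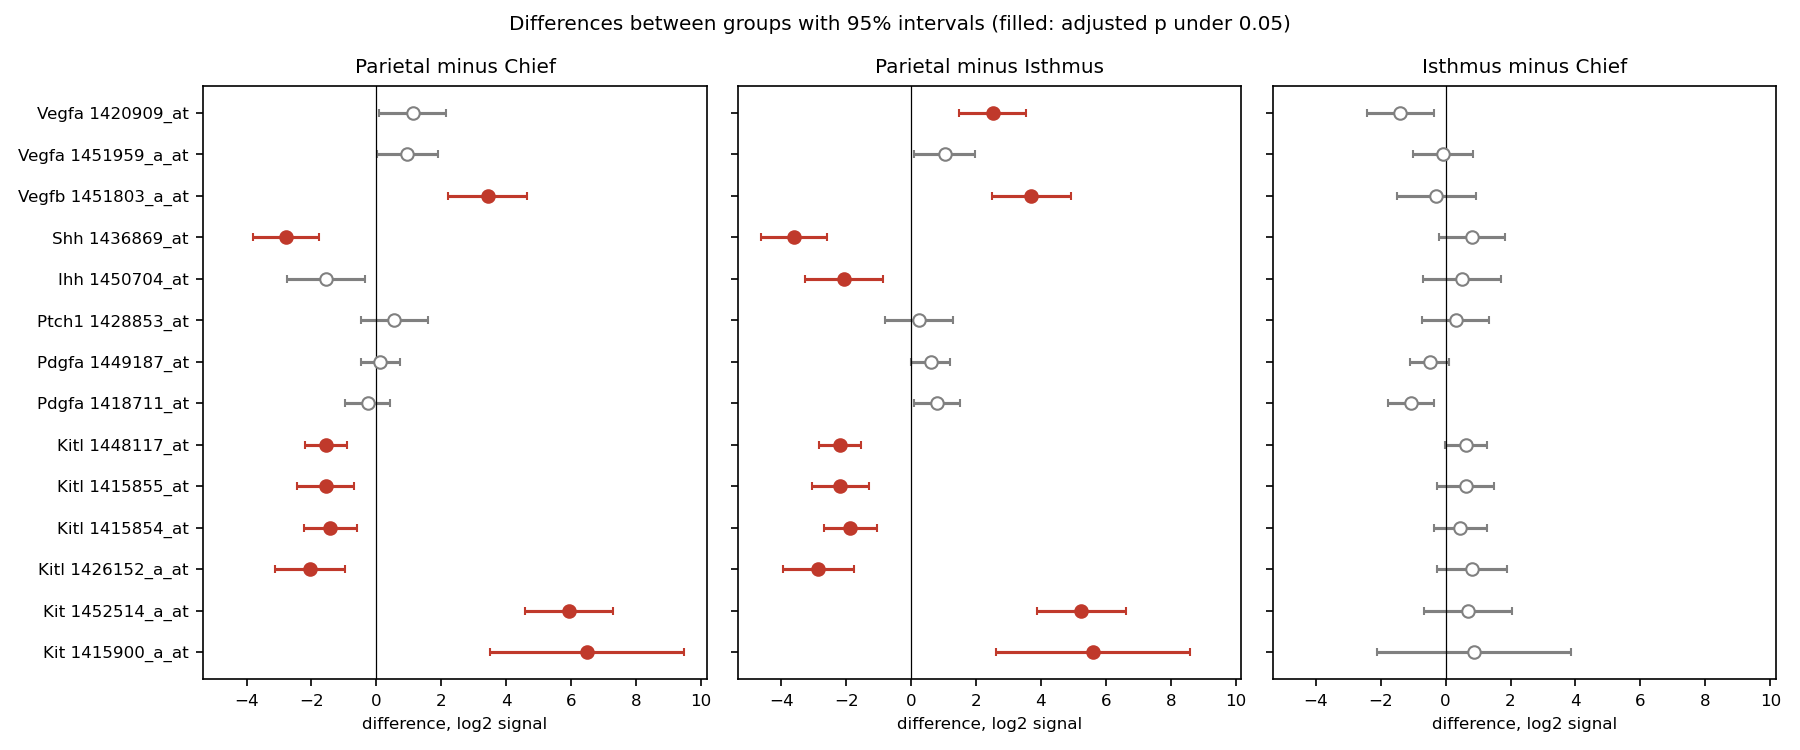
Difference in log2 signal (horizontal axis) with its 95% interval for each tested probe set in the 3 comparisons, filled where the limma adjusted p was under 0.05. Kit and Vegfb lie right of 0 and Shh and Kitl left of 0 in both Parietal comparisons, and no point is filled for Isthmus minus Chief.

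The hypoxia list was read beside Vegfa. It held 16 genes, all of them tested. In the Parietal over the Chief group 6 rose and 2 fell, with a median difference of 0.73, where 10.3% of all genes rose, 13.0% fell and the median was -0.10. In the Parietal over the Isthmus group 6 rose and 3 fell, with a median of 0.39, where 11.7% of all genes rose, 14.9% fell and the median was -0.09. With arrays centred on their medians the counts were 10 up and 1 down against the Chief group (median 1.42), and 7 up and 0 down against the Isthmus group (median 0.70). Without Parietal replicate 3 only 3 rose against the Chief group, and without the intensity trend only 2 did. Against the Isthmus group 0 fell without Parietal replicate 1, without Isthmus replicate 1 or without the intensity trend, which also left 3 that rose. Bnip3, a mitochondrial autophagy receptor, read 12.37, 12.30 and 12.31 on the Parietal arrays, 9.97, 9.45 and 9.51 on the Isthmus arrays and 9.07, 9.65 and 9.38 on the Chief arrays. It rose 7.78-fold over the Chief group (limma adjusted p = 1.67e-05) and 6.42-fold over the Isthmus group (limma adjusted p = 3.27e-05), with no overlap. P4ha1, a collagen prolyl hydroxylase, read 9.58, 9.38 and 9.89 on the Parietal arrays, 8.01, 6.36 and 5.94 on the Isthmus arrays and 8.17, 6.92 and 8.12 on the Chief arrays. Its rise of at least 6.59-fold over the Isthmus group passed (limma adjusted p = 0.00549), and its difference of 1.88 from the Chief group did not (limma adjusted p = 0.0508). That difference passed under 8 of the 19 alternatives that gave a value, among them centring on array medians (2.57, limma adjusted p = 0.0104) and quantile normalization (limma adjusted p = 0.0372).

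Both oxygen-sensing prolyl hydroxylases on the list were measured, and against the Isthmus group they went opposite ways. Egln1 read 11.82, 11.14 and 11.71 on the Parietal arrays, 10.10, 10.24 and 9.90 on the Isthmus arrays and 11.23, 10.52 and 10.97 on the Chief arrays. It rose 2.78-fold over the Isthmus group (limma adjusted p = 0.00191), while its difference of 0.65 from the Chief group did not pass (limma adjusted p = 0.12) except with arrays centred on their medians (limma adjusted p = 0.00532). Egln3 read 8.47, 7.83 and 9.06 on the Parietal arrays, 9.72, 9.36 and 10.54 on the Isthmus arrays and 10.50, 10.44 and 10.20 on the Chief arrays. It fell by 1.93 against the Chief group (limma adjusted p = 0.00598) and by 1.42 against the Isthmus group (limma adjusted p = 0.0274). The second of these calls was lost under 8 of 20 alternatives, with an adjusted p of up to 0.123 without Isthmus replicate 3 and a difference of -1.10 with centred arrays (limma adjusted p = 0.0832).

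**Figure D3:**
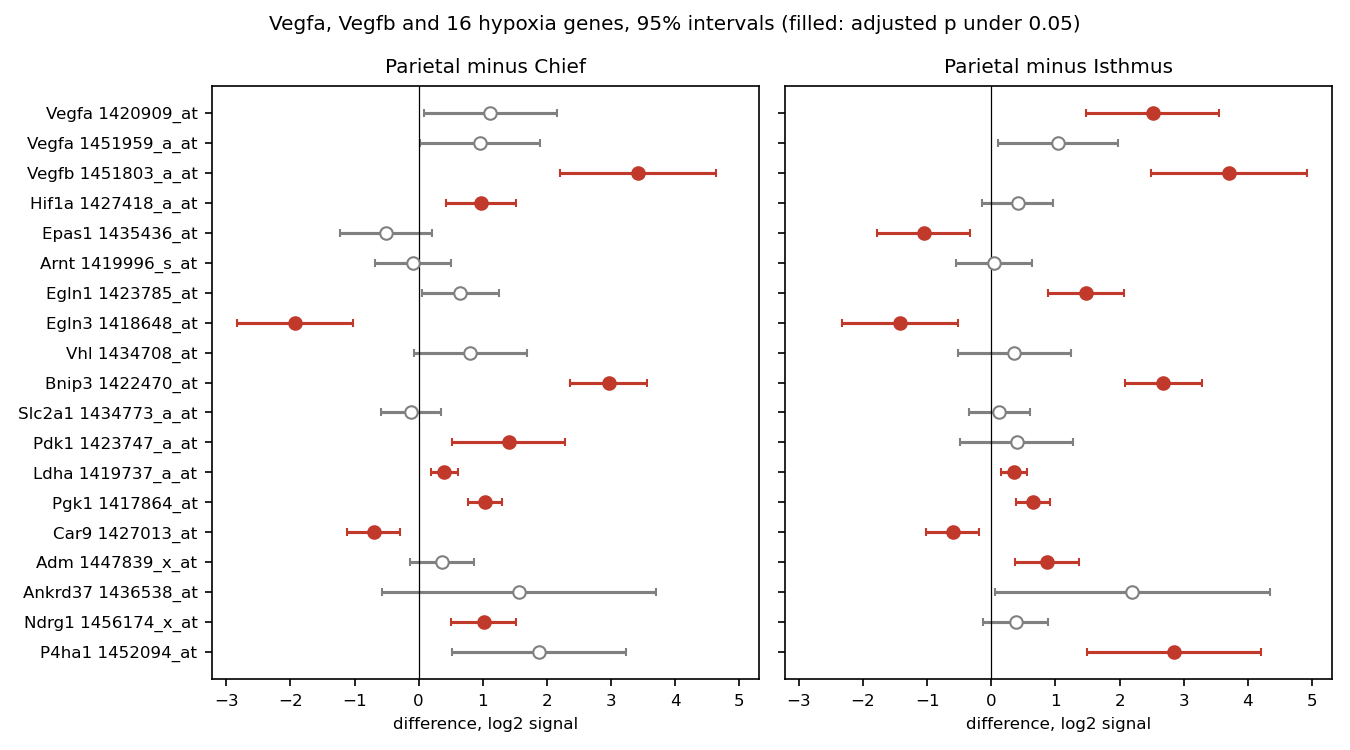
Difference in log2 signal (horizontal axis) with its 95% interval for Vegfa, Vegfb and the 16 hypoxia genes, Parietal minus Chief and Parietal minus Isthmus, filled where the limma adjusted p was under 0.05. Bnip3 lies near 3 in both panels, and Egln3 and Car9 lie left of 0 in both.

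Shh fell in the parietal arrays, as did Ihh against the Isthmus group. Surface pit cell genes were also lower in the Parietal group, 5 of 5 against the Chief group and 3 against the Isthmus group. Of all genes 13.0% and 14.9% were lower in these comparisons. The pit cell genes summed to 52241 to 59062 on Parietal arrays, 67444 to 80509 on Isthmus arrays and 104122 to 129199 on Chief arrays. Between the Isthmus and Chief groups 4 of the 5 pit cell genes were lower in the Isthmus group, where 1.06% of all genes were. Endocrine genes were lower in the Parietal group too, 4 of 5 against the Chief group (13.0% of all genes) and 4 of 5 against the Isthmus group (14.9%). The part of either cell type in the hedgehog result was not tested. Shh (1436869_at) encodes the hedgehog ligand of the gastric glands. Its log2 signal was 8.27, 9.02 and 6.85 on the Parietal arrays, 11.41, 11.64 and 11.89 on the Isthmus arrays and 10.49, 11.42 and 10.60 on the Chief arrays. Every Parietal value lay below every other, and Parietal replicate 3 was the lowest. The means were 8.05 ± 1.10 in the Parietal group, 11.65 ± 0.24 in the Isthmus group and 10.84 ± 0.51 in the Chief group (SD, n = 3). Shh was 6.92-fold lower in the Parietal than in the Chief group (log2 difference -2.79, SE 0.47, 95% interval -3.81 to -1.77, limma adjusted p = 0.00119). It was 12.1-fold lower than in the Isthmus group (log2 difference -3.60, limma adjusted p = 0.000168). The Isthmus minus Chief difference was 0.81 (95% interval -0.21 to 1.83, limma adjusted p = 0.448). All 3 Parietal arrays still lay above their array median for Shh. A further Shh probe set, 1427571_at, lay between 1.29 and 6.21, above the median on none of the 9 arrays, and was not tested.

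Ihh (1450704_at), the related ligand Indian hedgehog, read 7.42, 7.68 and 5.80 on the Parietal arrays, 8.82, 8.99 and 9.28 on the Isthmus arrays and 8.50, 8.54 and 8.53 on the Chief arrays. Again the Parietal values were the lowest of the 9 with no overlap, and the Isthmus values were all above the Chief values. The group means were 6.97 ± 1.02 (Parietal), 9.03 ± 0.23 (Isthmus) and 8.52 ± 0.02 (Chief, SD, n = 3). Ihh was at least 4.12-fold lower in the Parietal than in the Isthmus group (log2 difference -2.06, SE 0.56, limma adjusted p = 0.0175). The call was lost without Parietal replicate 3 (limma adjusted p = 0.0677) or without Isthmus replicate 3 (limma adjusted p = 0.0626). Parietal minus Chief was -1.56 and did not pass (limma adjusted p = 0.0678), nor did the Isthmus minus Chief difference of 0.51 (limma adjusted p = 0.709).

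Ptch1, the hedgehog receptor and a transcriptional target of the pathway, passed in no comparison. On 1428853_at it read 11.16, 10.14 and 9.46 on the Parietal arrays, 9.15, 10.47 and 10.40 on the Isthmus arrays and 9.30, 9.59 and 10.21 on the Chief arrays. The 3 groups overlapped. The difference was 0.55 for Parietal minus Chief (95% interval -0.48 to 1.59, limma adjusted p = 0.466), 0.25 for Parietal minus Isthmus (95% interval -0.79 to 1.28, limma adjusted p = 0.766) and 0.31 for Isthmus minus Chief (limma adjusted p = 0.806). The intervals leave room for changes of more than 1 in either Parietal comparison. Both other Ptch1 probe sets missed the filter, at 1.24 to 5.34 (1450824_at) and 0.29 to 6.42 (1439663_at).

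Of 16 further hedgehog pathway genes, 15 had a probe set and 7 were tested. In the Parietal against the Chief group 0 rose and 1 fell, with a median difference of -0.91, where 10.3% of all genes rose and 13.0% fell. Against the Isthmus group 0 passed at limma's adjusted threshold and 1, Smo, had an unadjusted p under 0.05. The gene that fell was Smo, the signal transducer that Ptch1 restrains. Smo read 6.77, 6.51 and 5.34 on the Parietal arrays, 8.25, 8.04 and 7.43 on the Isthmus arrays and 9.42, 9.73 and 10.77 on the Chief arrays. The 3 groups did not overlap and ran Chief, Isthmus, Parietal from high to low. Smo was at least 12.1-fold lower in the Parietal than in the Chief group (log2 difference -3.77, SE 0.59, limma adjusted p = 0.000652). The Parietal minus Isthmus difference of -1.70 (limma adjusted p = 0.0533) and the Isthmus minus Chief difference of -2.07 (limma adjusted p = 0.116) did not pass. Gli1 and Hhip, which like Ptch1 are targets of the pathway, and the effectors Gli2 and Gli3 missed the filter and were not tested.

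The receptor of the peptide that Pthlh encodes, Pth1r, was dim on every array. It read 1.34, 0.87 and 1.25 on the Parietal arrays, 3.18, 3.72 and 2.69 on the Isthmus arrays and 4.47, 5.12 and 5.08 on the Chief arrays, all below the array median. None of the 4 PTH family genes listed (Pth, Pth1r, Pth2r and Pth2) was tested.

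Pdgfa passed in no comparison on either of its probe sets. On 1449187_at it read 10.75, 10.72 and 11.20 on the Parietal arrays, 10.14, 10.00 and 10.70 on the Isthmus arrays and 11.00, 10.57 and 10.74 on the Chief arrays. Parietal minus Chief was 0.12 (95% interval -0.49 to 0.73, limma adjusted p = 0.813), and 0.81 with centred arrays (limma adjusted p = 0.06). Parietal minus Isthmus was 0.61 (limma adjusted p = 0.142), which passed only with arrays centred on their medians (limma adjusted p = 0.0411), and Isthmus minus Chief was -0.49 (limma adjusted p = 0.437). On 1418711_at it read 10.37, 10.31 and 10.35 on the Parietal arrays, 9.91, 9.49 and 9.25 on the Isthmus arrays and 11.17, 10.23 and 10.44 on the Chief arrays. The Isthmus values were the lowest on this probe set, with no overlap with either other group. The differences were -0.27 for Parietal minus Chief (limma adjusted p = 0.617), 0.79 for Parietal minus Isthmus (limma adjusted p = 0.101) and -1.06 for Isthmus minus Chief (95% interval -1.77 to -0.36, limma adjusted p = 0.138).

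Among the 5 other PDGF ligands and receptors listed, 3 were tested. In the Parietal against the Chief group 1 rose and 1 fell (10.3% and 13.0% of all genes), and in the Parietal against the Isthmus group 1 rose and 0 fell (11.7% and 14.9% of all genes). Pdgfd, a ligand of the beta receptor, was the one that rose in both. It read 10.87, 10.11 and 10.59 on the Parietal arrays, 6.47, 8.54 and 7.16 on the Isthmus arrays and 8.85, 7.82 and 7.75 on the Chief arrays, with every Parietal value above every other. Pdgfd rose 5.22-fold over the Chief group (log2 difference 2.38, SE 0.57, limma adjusted p = 0.00992) and 8.77-fold over the Isthmus group (log2 difference 3.13, limma adjusted p = 0.00155). The first call was lost without both Chief replicate 3 and Parietal replicate 1 (limma adjusted p = 0.11). Pdgfb, known as an endothelial ligand for pericytes, read 4.13, 5.10 and 5.48 on the Parietal arrays, 5.59, 5.98 and 6.91 on the Isthmus arrays and 6.55, 8.06 and 8.39 on the Chief arrays. It was at least 3.56-fold lower in the Parietal than in the Chief group (limma adjusted p = 0.0365), a call lost under 8 of the 19 alternatives that gave a value, with an adjusted p of up to 0.263 and a difference of -2.07 with centred arrays (limma adjusted p = 0.0812). Pdgfb would have missed the filter without its Chief arrays, so these p-values are descriptions. The receptors Pdgfra and Pdgfrb missed the filter and were not tested.

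Kitl and Kit, a ligand and its receptor, went opposite ways in the parietal arrays. Kitl fell on all 4 of its probe sets in both Parietal comparisons. On 1448117_at it read 9.32, 9.17 and 8.59 on the Parietal arrays, 11.14, 11.44 and 11.06 on the Isthmus arrays and 10.44, 10.50 and 10.81 on the Chief arrays. The 3 groups did not overlap and ran Isthmus, Chief, Parietal from high to low. The means were 9.03 ± 0.39 in the Parietal group, 11.21 ± 0.20 in the Isthmus group and 10.58 ± 0.20 in the Chief group (SD, n = 3). This was 2.94-fold lower in the Parietal than in the Chief group (log2 difference -1.56, SE 0.30, limma adjusted p = 0.00265) and 4.55-fold lower than in the Isthmus group (log2 difference -2.19, limma adjusted p = 0.000216). Isthmus minus Chief was 0.63 (95% interval -0.01 to 1.27, limma adjusted p = 0.335).

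The other Kitl probe sets read the same gene and are not separate evidence. On 1415855_at the values were 7.74, 8.49 and 8.63 on the Parietal arrays, 10.22, 10.52 and 10.66 on the Isthmus arrays and 9.20, 10.36 and 9.99 on the Chief arrays. On 1415854_at they were 8.02, 8.14 and 8.57 on the Parietal arrays, 10.14, 10.06 and 10.13 on the Isthmus arrays and 10.16, 9.52 and 9.30 on the Chief arrays. No Parietal value reached the lowest Isthmus or Chief value on either probe set. On 1426152_a_at they were 7.35, 6.25 and 7.30 on the Parietal arrays, 9.79, 9.43 and 10.24 on the Isthmus arrays and 8.38, 9.19 and 9.48 on the Chief arrays. These 3 probe sets gave Parietal minus Chief differences of -1.56, -1.42 and -2.05 (limma adjusted p = 0.0159, 0.0177 and 0.0116) and Parietal minus Isthmus differences of -2.18, -1.87 and -2.85 (limma adjusted p = 0.00187, 0.00308 and 0.00127).

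The Parietal minus Chief calls of Kitl were lost with arrays centred on their medians and held under quantile normalization. Those against the Isthmus group held under both. With arrays centred on their medians all 4 probe sets were still lower in the Parietal than in the Chief group, by 0.72 to 1.36, but none passed in limma (adjusted p = 0.061 for 1448117_at, 0.129 for 1415855_at, 0.222 for 1415854_at and 0.0558 for 1426152_a_at). Without both Chief replicate 3 and Parietal replicate 1, 1448117_at passed and the other 3 did not (limma adjusted p = 0.129, 0.0575 and 0.0612). Leaving out 1 array at a time ended the call of 1415855_at without Parietal replicate 1, Chief replicate 2 or Chief replicate 3, that of 1415854_at without Parietal replicate 1, Parietal replicate 2 or Chief replicate 1, and that of 1426152_a_at without Chief replicate 3 (limma adjusted p = 0.0502 to 0.0646 over these). All 4 Parietal minus Isthmus calls held under every alternative that gave a value.

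Kit was higher on the parietal arrays on both of its probe sets. On 1452514_a_at it read 10.80, 11.25 and 11.42 on the Parietal arrays, 6.47, 6.23 and 5.03 on the Isthmus arrays and 5.47, 5.67 and 4.53 on the Chief arrays. The lowest Parietal value lay above the highest of the 6 others. The means were 11.16 ± 0.32 in the Parietal group, 5.91 ± 0.77 in the Isthmus group and 5.22 ± 0.61 in the Chief group (SD, n = 3). All 3 Chief values and 1 or more Isthmus values lay below their array median on each probe set, so the folds are bounds, and the fitted log2 differences are no measure of size. Kit would have missed the filter without its Parietal arrays, so its p-values are descriptions. Kit was at least 24.7-fold higher in the Parietal than in the Chief group (log2 difference 5.93, SE 0.63, limma adjusted p = 4.12e-05) and at least 28.2-fold higher than in the Isthmus group (log2 difference 5.25, limma adjusted p = 9.02e-05). On 1415900_a_at it read 9.79, 10.16 and 9.86 on the Parietal arrays, 0.61, 5.82 and 6.57 on the Isthmus arrays and 1.79, 4.35 and 4.23 on the Chief arrays. There the rise was at least 10.6-fold over the Chief group (limma adjusted p = 0.00528) and at least 13.0-fold over the Isthmus group (limma adjusted p = 0.0108). Isthmus minus Chief was 0.69 on 1452514_a_at (limma adjusted p = 0.646) and 0.88 on 1415900_a_at (limma adjusted p = 0.809), where most values lay below the median.

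Markers of the other cells known to carry Kit stood beside its result as follows. The 8 mast cell genes summed to a signal of 110.0 to 281 on Parietal arrays, 323 to 1882 on Isthmus arrays and 2286 to 4796 on Chief arrays, and 7 of the 8 lay below the array median on all 3 Parietal arrays. Much of these sums was Hdc, and the other 7 genes summed to 69.4 to 241 on Parietal arrays, 86.7 to 799.8 on Isthmus arrays and 689.9 to 1279 on Chief arrays. Mcpt2, a mast cell protease, was listed at 0 on Parietal replicates 1 and 2 and read 7.34 on Parietal replicate 3, while Ms4a2, a chain of the IgE receptor, read 0, 0 and 3.44. Cpa3, the mast cell carboxypeptidase, read 4.70, 5.31 and 2.73 there. Hdc, which makes histamine in mast cells and in gastric endocrine cells, read 5.71, 1.80 and 5.32 on the Parietal arrays, 6.85, 10.81 and 9.68 on the Isthmus arrays and 11.78, 11.95 and 10.64 on the Chief arrays, and it was at least 49.2-fold lower in the Parietal than in the Chief group (limma adjusted p = 0.000467). Endocrine genes fell too, 4 of 5 against the Chief group (13.0% of all genes) and 4 of 5 against the Isthmus group (14.9%). They summed to 389 to 653 on Parietal arrays, 18661 to 41633 on Isthmus arrays and 36730 to 75016 on Chief arrays. Of the interstitial cell genes, Ano1 read 10.68, 8.56 and 8.54 on the Parietal arrays, 11.69, 11.16 and 12.21 on the Isthmus arrays and 10.87, 10.11 and 11.48 on the Chief arrays. The 2 interstitial cell genes measured summed to 385 to 1662 on Parietal arrays, 2307 to 4760 on Isthmus arrays and 1132 to 3114 on Chief arrays. Much of each sum was Ano1, so the sums are mainly a reading of that gene. Ano1 lay above the array median on all 9 arrays. It was lower in the Parietal than in the Isthmus group (log2 difference -2.43, limma adjusted p = 0.00535), and its difference of -1.56 from the Chief group did not pass (limma adjusted p = 0.0556). That difference passed under 7 of 20 alternatives, with a limma adjusted p of 0.00337 to 0.234 over all of them. Without Parietal replicate 1 it was -2.27 (limma adjusted p = 0.00337). The 5 leukocyte genes summed to 180 to 600 on Parietal arrays and 86.2 to 157 on Isthmus arrays. On Chief arrays they summed to 53.9 to 1184, and of the 2 tested none passed in any comparison. The part of any of these cell types in the Kit result was not tested.

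**Figure D4:**
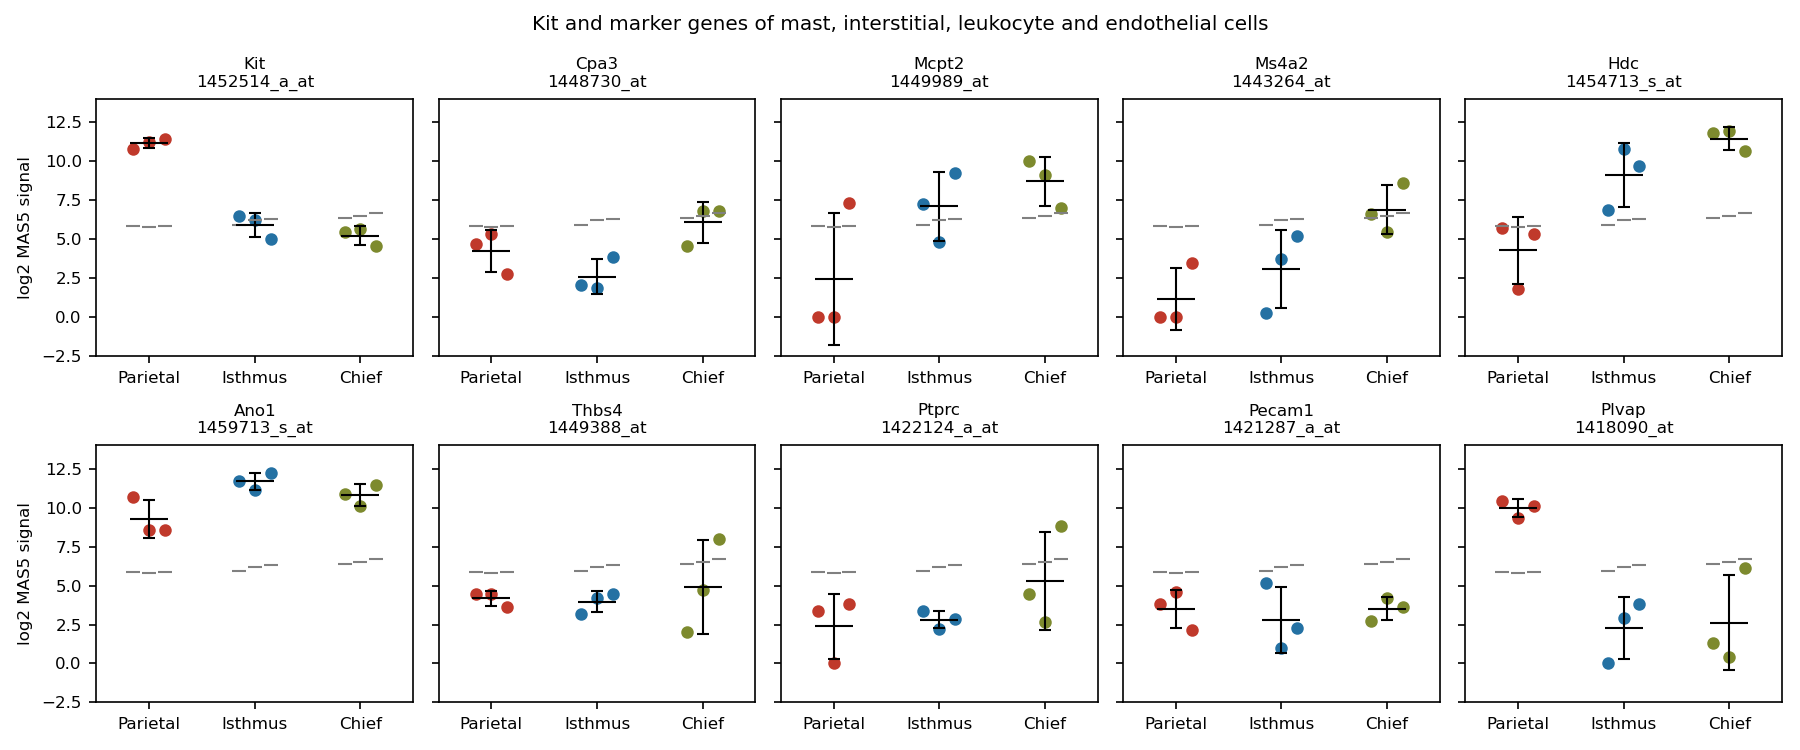
Log2 signal (vertical axis) on each array (points) of Kit and of marker genes of mast cells (Cpa3, Mcpt2, Ms4a2, Hdc), interstitial cells of Cajal (Ano1, Thbs4), leukocytes (Ptprc) and endothelium (Pecam1, Plvap), with the group mean and SD (bars, n = 3) and each array's median (grey ticks). Of the 10 genes, Kit and Plvap lie higher on all 3 Parietal arrays than on the 6 others.

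Of 10 genes acting downstream of Kit, 9 had a probe set and 8 were tested. In the Parietal against the Chief group 1 rose and 1 fell, with a median difference of 0.07, where 10.3% of all genes rose and 13.0% fell, and in the Parietal against the Isthmus group 0 rose and 1 fell, with a median of 0.02, where 11.7% rose and 14.9% fell. Grb7, an adaptor of receptor tyrosine kinases, read 7.89, 6.23 and 7.10 on the Parietal arrays, 10.35, 9.70 and 10.45 on the Isthmus arrays and 9.13, 8.65 and 9.12 on the Chief arrays, with no overlap between the 3 groups. It was 8.53-fold lower in the Parietal than in the Isthmus group (log2 difference -3.09, limma adjusted p = 0.000675). Its fall of 1.89 against the Chief group passed (limma adjusted p = 0.0168), but not with arrays centred on their medians (0.0975) or without Parietal replicate 2 (0.0621) or Chief replicate 3 (0.0521). Stat5a, a transcription factor that Kit activates, read 11.31, 11.14 and 10.58 on the Parietal arrays, 9.95, 10.92 and 10.36 on the Isthmus arrays and 9.29, 10.13 and 10.32 on the Chief arrays. Its difference of 1.10 from the Chief group just passed (limma adjusted p = 0.047), and the call was lost under 11 of 20 alternatives with an adjusted p of up to 0.156. None of the tested genes of these pathway lists passed between the Isthmus and Chief groups, where 0.318% of all genes rose and 1.06% fell. With centred arrays 2 of the 16 hypoxia genes rose there, with a median difference of 0.35 against -0.03 uncentred.

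For each member the 3 genes with the most similar pattern were taken by Pearson's r over the 9 arrays, among 11005 other genes. These r values largely follow the split between the Parietal and the other arrays and carry no test. Kit lay closest to Gde1 (r = 0.991), Gpr155 (0.991) and Acadm (0.990), Vegfb to Pld6 (0.986), Glt28d2 (0.984) and Ldah (0.983), and Vegfa to Lamp1 (0.979), Agpat3 (0.973) and Atp5j2 (0.973). Kitl lay closest to Slc44a4 (0.989), Uhrf1 (0.984) and Hnrnpdl (0.983), Shh to Dsg2 (0.987), Sytl2 (0.987) and Sdcbp2 (0.985), and Ihh to Stc2 (0.987), Arhgap27 (0.986) and Zbtb7c (0.984). Of the genes that passed in no comparison, Pdgfa lay closest to Ube3c (0.966), Lrrc56 (0.931) and Mrps33 (0.927), and Ptch1 to Senp2 (0.907), Ppp1r14b (0.887) and Rabep1 (0.863).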

How the data were processed

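Each deposited value is the log2 signal of 1 probe set on 1 array, which the authors computed with MAS5, per the submitters' processing notes. Its version and the log step were not stated in the sources used here. The base was settled from the values, since base 2 gives a mean signal, trimmed by 2% at each end, of 496 to 497 on each of the 9 arrays. The total RNA was labelled with biotin, per the labels' protocols. Scanner files and detection calls were not used here.

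Of 45037 probe sets, 34945 named 1 gene in the platform annotation, 932 named several and 9160 named none. Tested were those with 1 gene that exceeded the median of their array in 3 or more of the 9 arrays (21393 probe sets of 11053 genes). One limma 3.58.1 model in R 4.3.3 held the 3 group means on the log2 values as deposited, with 6 residual degrees of freedom and an intensity trend. All adjusted p-values are limma's, two-sided, by Benjamini-Hochberg over the 21393 probe sets in each comparison, and a call is an adjusted p under 0.05. A fold is "at least" where any array of the lower group fell under its own median, and each dim array was then set to the higher of its value and that median, a stand-in for background. The fit was tested on simulated data, and the number of arrays limits the precision.

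All member probe sets are named. For each pathway list the rule takes at most 4 called genes, by size of difference, and the 2 brightest of a list with no call, each gene read by its brightest probe set (11006 such genes tested). It adds the 3 genes most like each member. Marker genes were picked for the cell types they define. Members and lists were chosen with earlier results of these data known.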

Additional observations from a re-analysis of the deposited data

How the results depend on the processing

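Over 20 alternatives, 251 of 270 single differences of the member probe sets kept their direction and their side of the threshold for Parietal minus Chief, 265 of 270 for Isthmus minus Chief and 263 of 270 for Parietal minus Isthmus. The Parietal minus Chief and Parietal minus Isthmus calls of Vegfb, Kit and Shh held under each alternative that gave a value. Vegfb and Kit gave none where a probe set had to lie above the median on all arrays. The Kit calls remain descriptions, since Kit met the filter only through its Parietal arrays. The count of member probe sets passing between Parietal and Chief was 8. It was 5 (0 higher) when a probe set had to lie above the median on all arrays, which left 10 to test, 4 with 1 probe set per gene, which left 8, and 5 without both Chief replicate 3 and Parietal replicate 1. It was 6 (5 higher, 1 lower) with arrays centred on their medians and 6 to 8 with 1 array left out. Between Parietal and Isthmus the count was 10, and it was 6 above the median on all arrays, 6 with 1 probe set per gene, 12 with centred arrays and 9 to 10 with 1 array left out. Between Isthmus and Chief it was 0 in limma throughout. Signs turned in 11 cases, none of them of a called difference. For Pdgfa, Parietal minus Chief ran from -0.035 (without Parietal replicate 3) to 0.23 on 1449187_at with 1 array left out, and on 1418711_at from -0.46 to 0.0083 (without Chief replicate 1), with 0.42 when centred. For Isthmus minus Chief, Vegfa (1451959_a_at) ran from -0.27 to 0.19 (without Chief replicate 1) and was 0.29 centred, Vegfb ran from -0.77 to 0.35 (without Chief replicate 2) and was 0.093 centred, and Kit (1415900_a_at) ran from -0.24 (without Isthmus replicate 3) to 2.74. For Parietal minus Isthmus, Ptch1 ran from -0.21 (without Parietal replicate 1, with or without Chief replicate 3 left out too) to 0.64, and was -0.18 without Isthmus replicate 1. The turn under centring follows from the shift it adds, and the cause of the others was not tested. Deviations of same-numbered arrays correlated at -0.018 to 0.055 and those of other pairs at -0.049 to 0.026. Between Chief and Isthmus arrays the same-numbered pairs gave 0.0115, 0.0267 and 0.0555, and the others -0.049 to 0.021. Values from 3 samples per group cannot settle whether replicate numbers pair the samples. With the replicate number as a block the member counts were 8, 0 and 10. Over all probe sets, 4265 passed between Parietal and Chief (43.6% higher), against 2476 without both Chief replicate 3 and Parietal replicate 1. Centring made the share higher 79.8% there, 63.0% for Parietal minus Isthmus (44.8% uncentred) and 82.1% for Isthmus minus Chief (20.8% uncentred). Between Isthmus and Chief 240 passed, against 424 with a pseudocount of 64, 368 above the median on all arrays, 119 with no filter, 116 from these groups alone, 33 without the intensity trend, 51 without both named arrays and 28 to 233 with 1 array left out. Signals below the array median have only a bound, which limits Kit in the Isthmus and Chief groups and the 3 untested probe sets.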
